A study of Mus musculus with 2 samples.

Results

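The miRNAs miR-21, miR-221 and miR-222 were examined in microvesicles (MVs) released by mouse bone marrow mesenchymal stem cells (MSCs), with every deposited entry taken named miR-21, miR-21a, miR-21b, miR-221 or miR-222, for either arm of the hairpin. The rule used names and no measured value, and it gave 6 of the 831 entries, namely mmu-miR-21a-5p, mmu-miR-21a-3p, mmu-miR-221-3p, mmu-miR-221-5p, mmu-miR-222-3p and mmu-miR-222-5p. The MSCs came from young male C57BL/6 mice and were grown in DMEM/F12 with fetal bovine serum and antibiotics. MVs of MSCs that also received erythropoietin (EPO, 100 IU/ml for 48 h) are called EPO-MVs, and MVs of MSCs kept for 48 h without EPO are called MSC-MVs. Each kind was measured on 1 miRCURY LNA Array, so no test was possible, no difference has a replicate check, and an effect of the array and an effect of EPO cannot be told apart. The serum added to both cultures can carry vesicles of its own, and whether it contributed signal was not tested. A normalized intensity does not show whether fewer MVs carried a miRNA or each MV carried less of it.

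A miRNA hairpin is cut into a duplex, from which the guide strand is loaded into an Argonaute protein and the passenger strand is mostly discarded. The guide pairs with mRNAs through its seed, bases 2 to 8, and lowers the output of those mRNAs. The miRNA miR-21 is an abundant, growth-promoting and anti-apoptotic miRNA that represses PDCD4, and it is raised in many fibrotic kidneys. The miRNAs miR-221 and miR-222 are known for repressing the cell cycle inhibitor p27 (CDKN1B) and the receptor KIT. The guide strands are miR-21a-5p, miR-221-3p and miR-222-3p, and the other arms are called passenger strands here.

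The mature sequences show which members can pair with the same mRNAs. They are given 5′ to 3′ from RefSeq (GRCm38.p6), with the seed in capitals, for the 5 members that matched by name.
mmu-miR-21a-5p: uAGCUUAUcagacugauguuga
mmu-miR-21a-3p: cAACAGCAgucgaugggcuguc
mmu-miR-221-3p: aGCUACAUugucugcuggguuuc
mmu-miR-222-3p: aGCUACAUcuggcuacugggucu
mmu-miR-221-5p: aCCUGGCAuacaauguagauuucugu

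The guide strands miR-221-3p and miR-222-3p had the same seed and were identical over their first 8 bases, while 11 of 23 positions matched without gaps. The guide of miR-21a had a different seed, as did both passenger strands shown. Among the RefSeq mouse miRNAs, mmu-miR-21c shared the seed of miR-21a-5p and its first 15 bases, and mmu-miR-1928 shared the seed of miR-221-3p and miR-222-3p. No deposited entry carried the name miR-21b, miR-21c or miR-1928. The array's probe sequences were not used here, so how far the miR-21a-5p probe also captures miR-21c was not tested. The sequences that make the near-copy visible are the following, with the seed in capitals.
mmu-miR-21c: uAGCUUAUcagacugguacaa
mmu-miR-1928: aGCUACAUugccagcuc

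The hairpins show where the arms lie, with the mature strands that RefSeq lists in capitals. In GRCm38.p6, Mir21a lies on the minus strand at chr11:86584067-86584158, within the annotated span of the protein-coding gene Vmp1. Mir221 (chrX:19146294-19146388) and Mir222 (chrX:19146893-19146971) are both on the minus strand, are next to each other with 504 bases between them, and overlap no other annotated gene.
Mir21a: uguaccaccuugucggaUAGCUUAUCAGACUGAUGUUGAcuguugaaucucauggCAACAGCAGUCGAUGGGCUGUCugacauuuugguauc
Mir221: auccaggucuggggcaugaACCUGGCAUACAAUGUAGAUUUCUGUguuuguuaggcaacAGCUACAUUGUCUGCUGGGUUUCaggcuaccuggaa
Mir222: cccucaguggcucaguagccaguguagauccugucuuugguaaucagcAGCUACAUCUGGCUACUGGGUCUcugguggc

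With the deposited values all 3 guide strands were somewhat lower in EPO-MVs than in MSC-MVs and none passed 1.5-fold, although miR-21a-5p was no longer lower after quantile normalization or a lowess correction. The guide miR-21a-5p had a normalized intensity of 78.9 in EPO-MVs against 90.3 in MSC-MVs, a ratio of 0.873. It was the third brightest entry on each array, behind miR-3963 and miR-5100, although the brightness of different probes also depends on how well each probe binds. The guide miR-221-3p had an intensity of 4.99 in EPO-MVs against 6.06 in MSC-MVs, a ratio of 0.823. Its cluster partner miR-222-3p had an intensity of 3.31 in EPO-MVs against 4.49 in MSC-MVs, a ratio of 0.736, the lowest of the 3. All 3 ratios were thus below 1, and they lay within a span of 0.25 on the log2 scale.

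The passenger strands did not share a direction. The strand miR-21a-3p was higher in EPO-MVs, with an intensity of 1.72 against 1.28 in MSC-MVs, a ratio of 1.34. The strand miR-221-5p was nearly equal on the arrays, with 0.308 in EPO-MVs against 0.300 in MSC-MVs, a ratio of 1.03. The strand miR-222-5p had the largest difference of the 6 entries, with 0.0127 in EPO-MVs against 0.0761 in MSC-MVs, a ratio of 0.167. It was the dimmest of the 6 entries on both arrays, so the size of this ratio is not settled, and it was 0.525 with a pseudocount of 0.0573.

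**Figure D1:**
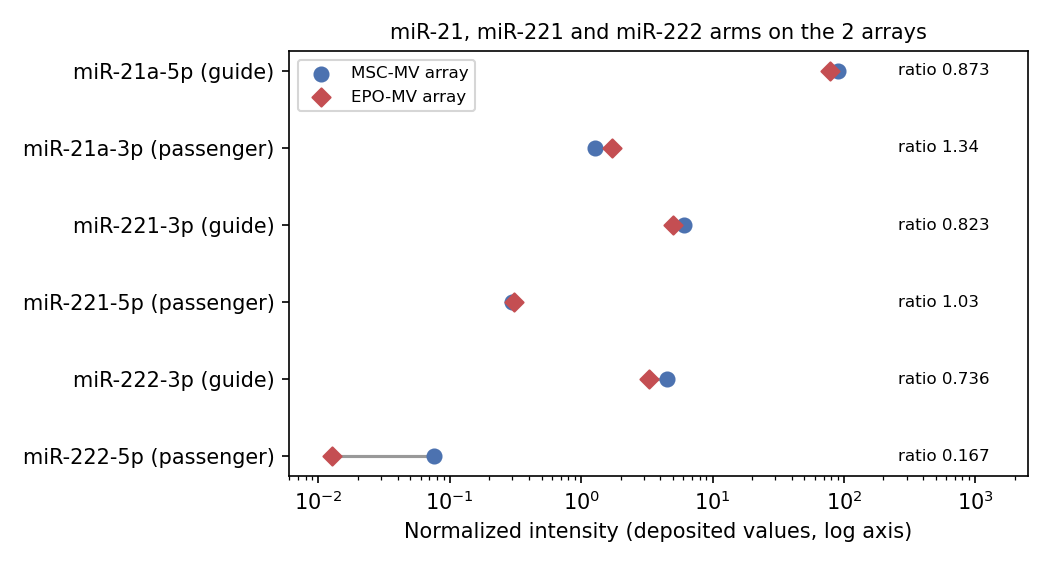
Normalized intensity (log axis) of each miR-21, miR-221 and miR-222 arm on the EPO-MV array (diamonds) and the MSC-MV array (circles), with their ratio (EPO-MV over MSC-MV) at the right; each symbol is 1 array and there are no error bars. The guide strands have ratios of 0.736 to 0.873, while miR-21a-3p lies at 1.34 and miR-222-5p at 0.167.

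How dim miR-222-5p was can be read from the deposited values themselves, which are whole multiples of the smallest value of each array, here called steps. On the EPO-MV array miR-222-5p stood at 6 steps and on the MSC-MV array at 34 steps. A shift of 1 step on each array would place its ratio between 0.136 and 0.201, and this range covers the resolution of the values and no measurement error. The guide miR-21a-5p stood at 37150 and 40369 steps, miR-221-3p at 2351 and 2710 steps, and miR-222-3p at 1558 and 2008 steps (EPO-MVs first). The passenger miR-21a-3p had 809 and 571 steps, and miR-221-5p had at least 134 steps on each array. For these 5 entries, 1 step on each array moved the ratio by at most 1.45%.

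Of the 6 entries, 1 passed a ratio of 1.5 in either direction, miR-222-5p, beside 25.4% of all 831 entries. Split by direction, 17.8% of all entries were higher by this rule on the EPO-MV array and 7.58% were lower. Such differences depended strongly on brightness. The entries were sorted by their average log2 intensity over the arrays into 4 brightness groups of 207 or 208. In the dimmest one, which holds miR-222-5p, 61.1% passed 1.5-fold. In the group of miR-221-5p, the third from the dim end, 10.1% passed. The other 4 members lay in the brightest group, where 8.21% passed.

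Within the brightest group, the guide strands were not at the extremes. The median log2 ratio of these 207 entries was -0.08, and 130 of them (62.8%) were below 0. This median was 0.01 after the lowess correction. The log2 ratio of miR-21a-5p was -0.20, and 35.3% of the group were at or below it. For miR-221-3p, with a log2 ratio of -0.28, this share was 28.5%, and for miR-222-3p, with -0.44, it was 14.5%. The passenger miR-21a-3p, with a log2 ratio of 0.43, was near the upper end, since 97.1% of the group were at or below it. In the dimmest group only 2 of the 208 entries had a lower log2 ratio than miR-222-5p (-2.58), and the standard deviation across that group's entries was 1.26, against 0.30 in the brightest.

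**Figure D2:**
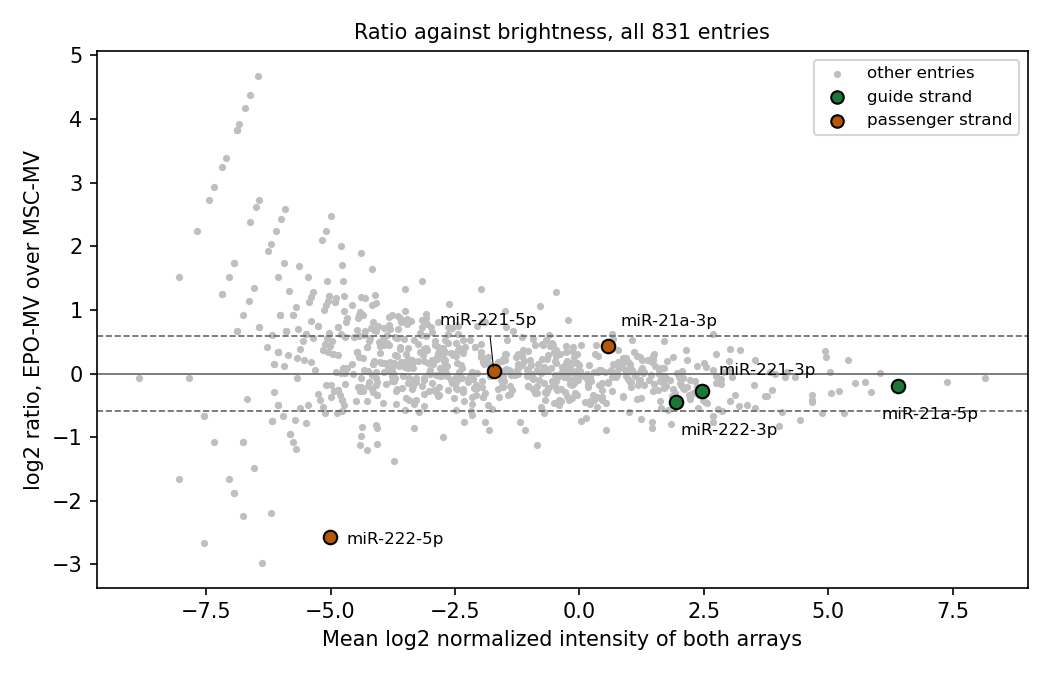
Log2 ratio of the EPO-MV over the MSC-MV value (vertical axis) against the average log2 intensity over the arrays (horizontal axis) for all 831 entries, with guide strands in green, passenger strands in orange and dashed lines at 1.5-fold. The guide strands lie inside the lines among bright entries, and miR-222-5p (-2.58) lies outside them among dim entries, where ratios scatter widely.

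Both arms of a hairpin are made from the same precursor, so the ratios of the arms were compared with each other, which avoids setting the intensity of one probe against that of another. The trend of the ratios with brightness remains in this difference, because the arms differ in brightness. For miR-21a, the guide and passenger lay on opposite sides of 1, with log2 ratios of -0.20 for the -5p arm and 0.43 for the -3p arm. Their difference (-5p minus -3p) was -0.62, or 1.54-fold. It went under 1.5-fold after quantile normalization (-0.50) and a lowess correction (-0.41), where the guide was not below 1 either. For miR-221, the -5p passenger at 0.04 and the -3p guide at -0.28 differed by 0.32, or 1.25-fold, and by 0.13 after the lowess correction and 0.02 after quantile normalization. For miR-222, both arms were lower in EPO-MVs, and the -5p passenger at -2.58 and the -3p guide at -0.44 differed by -2.14. With the pseudocount of 0.0573 this difference was -0.49, under 1.5-fold, and with the lowess correction it was -2.66. With the deposited values, the guide was in 2 of the 3 hairpins the arm with the lower ratio, and in miR-222 the passenger was.

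The same difference was computed for the 249 pairs of entries that carry both arms of a hairpin. The arms were at least 1.5-fold apart in 35.3% of all pairs and in 12.6% of the 127 pairs with at least 30 steps for both arms on both arrays. The median size of the difference was 0.39 on the log2 scale over all pairs and 0.26 over the 127 brighter pairs. Among the brighter pairs, 89.8% had a smaller difference than miR-21a and 63.0% a smaller one than miR-221. The pair of miR-222 is not among the brighter pairs because of the 6 steps of miR-222-5p in EPO-MVs, and over all pairs 93.6% had a smaller difference. Arms on opposite sides of a ratio of 1, as in miR-21a and miR-221, were found in 41.7% of the brighter pairs. The brighter entry of a pair had the lower ratio in 63.8% of the brighter pairs, as the guides of miR-21a and miR-221 did, so this order of the arms was common on these arrays.

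**Figure D3:**
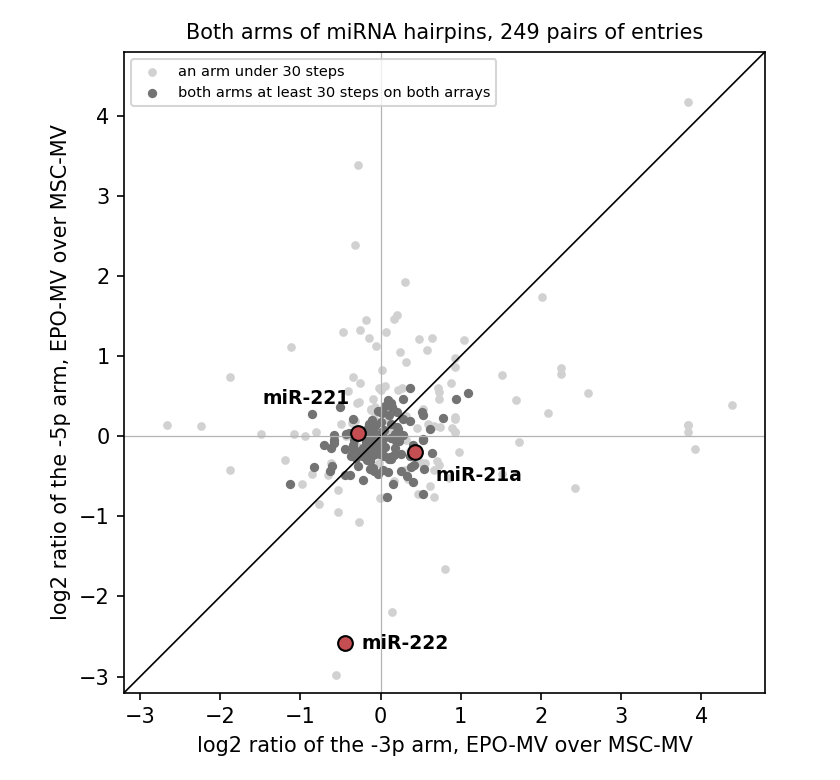
Log2 ratio of EPO-MV to MSC-MV for the -5p arm (vertical axis) against the -3p arm (horizontal axis) of 249 pairs of entries, dark where both arms had at least 30 steps on both arrays, with the line of equal ratios. With the deposited values, the pair of miR-21a lies below the line (difference -0.62), miR-221 above it (0.32) and miR-222 far below it (-2.14), and the differences of miR-21a and miR-222 each go under 1.5-fold in some other treatment of the values.

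The guides miR-221-3p and miR-222-3p come from neighbouring hairpins and share a seed, and their log2 ratios were 0.16 apart, or 1.12-fold. The guide of miR-21a, from another chromosome, was 0.09 from miR-221-3p and 0.25 from miR-222-3p. The passenger strands of the cluster were 2.62 apart on the log2 scale, with miR-222-5p the lower. This gap rests on the 6 steps of miR-222-5p in EPO-MVs, and it was 0.96 with the pseudocount.

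The direction of the guides was then followed through the deposited values and 6 other treatments of them (lowess correction for brightness, a pseudocount, quantile normalization, division by each array's 75th percentile, and median centring over either all entries or the brighter ones). The ratio of miR-222-3p was below 1 in all 7, from 0.711 to 0.817, and that of miR-221-3p was below 1 in all 7, from 0.795 to 0.987. The ratio of miR-21a-5p ranged from 0.844 to 1.04, reaching exactly 1 with quantile normalization, which gives an entry of the same rank on both arrays the same value, and passing above 1 with lowess. The passenger miR-21a-3p was above 1 in all 7, from 1.30 to 1.42, and miR-221-5p ranged from 0.991 to 1.07 on both sides of 1. For miR-222-5p the ratio ranged from 0.118 to 0.525, so that it stayed past 1.5-fold, with the least distance from 1 under the pseudocount of 0.0573, which exceeds its EPO-MV intensity. No treatment took the other 5 entries past 1.5-fold.

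**Figure D4:**
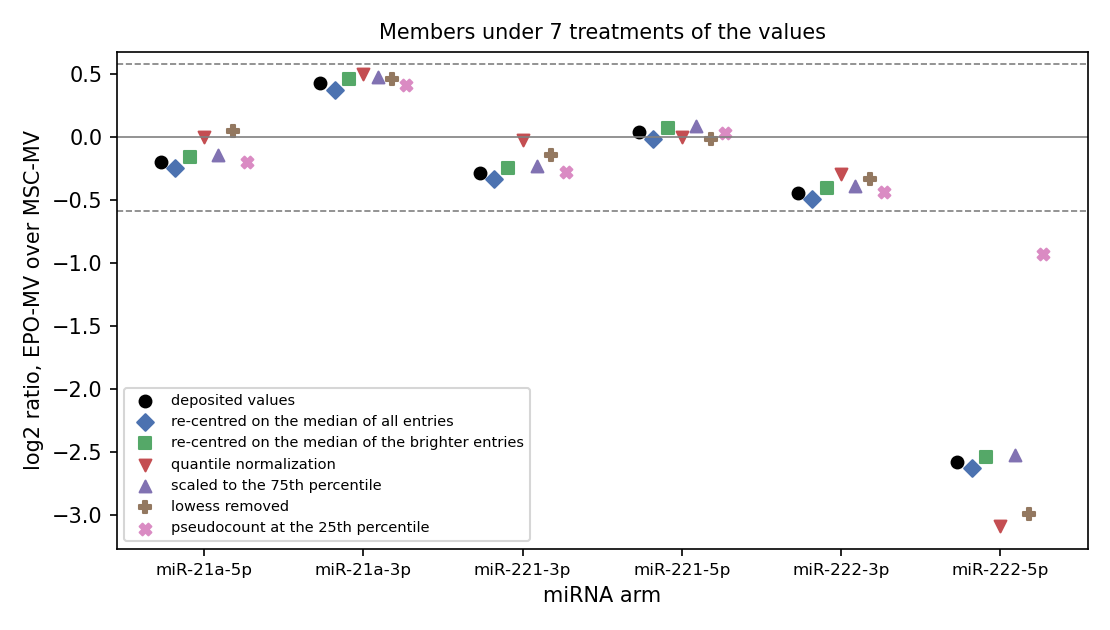
Log2 ratio of EPO-MV to MSC-MV (vertical axis) of each arm under 7 treatments of the values (symbols), with a solid line at 0 and dashed lines at 1.5-fold. The arms of miR-222 stay below 0 and miR-21a-3p above it, while miR-21a-5p and miR-221-5p cross 0.

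The entries closest to each guide in the log2 intensities of both arrays were named by distance alone. For miR-221-3p they were let-7c-5p, with an intensity of 4.75 in EPO-MVs against 5.98 in MSC-MVs (ratio 0.794), and miR-19b-3p, with a ratio of 0.752. For miR-222-3p they were miR-101a-3p (ratio 0.811) and let-7e-5p (ratio 0.782). The bright miR-21a-5p had no near neighbour, and the closest were miR-709 (ratio 1.00), at a distance of 0.51 on the log2 scale, and miR-22-3p (ratio 0.817), at 0.76. Among the passengers, miR-21a-3p was closest to the entry shared by miR-3070a-5p and miR-3070b-5p (ratio 1.45) and to miR-1947-3p (1.53), and miR-221-5p to the entry of miR-378a-3p, miR-378b and miR-378c (1.05) and to miR-5626-5p (0.971). Of the 6 members, the dim miR-222-5p lay farthest from its nearest entries, at a distance of 1.33 from miR-181a-2-3p, with 15 steps in EPO-MVs and 31 in MSC-MVs (ratio 0.459), and of 1.39 from miR-20a-3p, with 6 and 13 steps (0.438). These distances rest on 1 array per condition.

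Other guide strands linked to growth were looked at beside the members. The list of 15 growth-linked guides holds members of the miR-17-92 and miR-106b-25 clusters, miR-155, the hypoxia-induced miR-210, miR-214, miR-130b and miR-181. By the same 1.5-fold rule none was higher and 2 were lower in EPO-MVs, miR-181b-5p (ratio 0.590) and miR-25-3p (0.651), while the other 13 stayed within 1.5-fold, beside 17.8% higher and 7.58% lower over all entries. The next lowest was miR-93-5p (0.721). The highest ratios were those of miR-92a-3p (0.940), miR-106b-5p (0.862) and miR-181a-5p (0.836). All 15 ratios were below 1 with the deposited values and in the 6 other treatments. Over all 831 entries, 365 (43.9%) were below 1 with the deposited values and 324 to 415 in the other treatments. The median log2 ratio of the 15 was -0.34, beside 0.05 over all entries and -0.28 over the 3 guides of miR-21a, miR-221 and miR-222. Of the 15, between 1 and 3 were at least 1.5-fold lower in the other treatments, beside 25 to 96 of all 831 entries.

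The list of guides known for restraining growth holds let-7, miR-15/16, miR-195, miR-497, miR-26a, miR-29a, miR-34a (a p53 target), miR-101a, miR-143 and miR-145. Its 19 names are carried by 20 entries, of which 7 were at least 1.5-fold lower and none was higher, and the 7 became 2 with quantile normalization and 10 with centring on the median of all entries. Over all entries 7.58% were lower by this rule with the deposited values, 95 of 831 with quantile normalization and 71 of 831 with that centring. In the brightest group these counts were 15, 8 and 19 of 207. The lowest ratios were those of miR-497-5p (0.554), miR-29a-3p (0.563) and let-7f-5p (0.578), and the highest were those of miR-26a-5p (0.937), miR-195a-5p (0.929) and let-7i-5p (0.854). Below 1 with the deposited values were 43.9% of all entries and 130 of 207 in the brightest group (94 with quantile normalization, 99 with lowess). The median log2 ratio of the growth-restraining list was -0.47. All 20 of its ratios were below 1 with the deposited values and 19 of them with quantile normalization and with lowess. The 3 member guides were thus nearer to 1 than the median of this list, and the difference between the lists was not tested. Of the 20 entries, 18 lay in the brightest group, and of the 15 growth-linked ones 7 did.

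**Figure D5:**
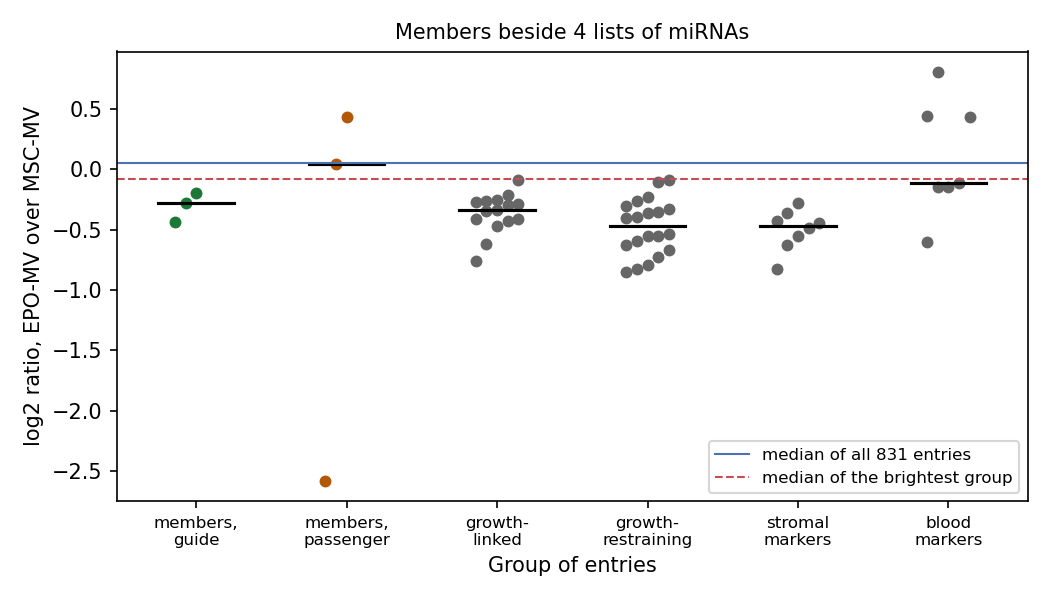
Log2 ratio of EPO-MV to MSC-MV (vertical axis) of the member guide and passenger strands and of 4 lists of miRNAs (points are entries, black bars are medians), with lines at the medians of all 831 entries (0.05) and of the brightest group (-0.08). The member guides lie among the growth-linked and growth-restraining guides, all of which are below 0 with the deposited values. Of all entries, 43.9% are below 0.

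The labelled cell type was compared with miRNAs that mark stromal and blood cells. All 8 stromal markers were listed, of which miR-143-3p, miR-145a-5p, miR-29a-3p and miR-214-3p are also in the growth lists above, at 108 to 15822 steps in EPO-MVs and 132 to 22016 steps in MSC-MVs, with miR-125b-5p and miR-143-3p among the brightest. All 8 were lower in EPO-MVs, with a median log2 ratio of -0.47, and 2 of them passed 1.5-fold, miR-29a-3p (0.563) and miR-143-3p (0.648), with 0 to 3 past it in the other treatments. Of these markers 7 lay in the brightest group, where 130 of 207 entries (62.8%) were lower and 15 were at least 1.5-fold lower. Over all entries, these shares were 43.9% and 7.58%. In the other treatments, 8 to 19 entries of the brightest group and 25 to 96 of all 831 entries were at least 1.5-fold lower. All 7 blood cell markers were listed too, at 34 to 20714 steps in EPO-MVs and 24 to 21839 steps in MSC-MVs. None was at the smallest value of an array, which does not place them above background. The leukocyte miRNA miR-142-3p was also among the brightest (rank 8 on each array), with 20714 steps in EPO-MVs and 21839 in MSC-MVs (ratio 0.900). The myeloid miR-223-3p had 6415 and 9245 steps (0.659), and the erythroid miR-451a had 1821 and 1915 steps (0.902). The blood markers went both ways, with 4 of 7 ratios below 1, beside 43.9% of all entries. The 3 above 1 were the erythroid miR-144-3p (1.75), miR-150-5p of lymphocytes (1.36) and the entry shared by miR-486-5p and miR-3107-5p (1.34). Past 1.5-fold, miR-144-3p was higher and miR-223-3p was lower, beside 17.8% higher and 7.58% lower over all entries, and miR-223-3p was within 1.5-fold in 4 of the 6 other treatments. The median log2 ratio of the blood list was -0.12, and it turned to 0.03 with quantile normalization and 0.08 with lowess. Summed over its probes, which bind differently and so allow a comparison between arrays only, the stromal list had an intensity of 125.0 for EPO-MVs against 177.4 for MSC-MVs. A lower sum was not particular to this list, since the growth-restraining list, which shares entries with it, had 145.2 against 212.0. The same sum for the blood list was 67.6 against 80.0, but it comes mostly from miR-142-3p and miR-223-3p and does not describe the 3 markers that were higher. The cultured MSCs were described as negative for the leukocyte surface marker CD45 by flow cytometry, and the MVs were collected by ultracentrifugation. The part of either cell type in the lower guides of miR-21a, miR-221 and miR-222 was not tested.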

How the data were processed

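Total RNA of MVs was labelled with Hy3 (the paper names a Hy3/Hy5 labelling kit) and hybridized to the miRCURY LNA Array, which was scanned and read with GenePix software. The authors averaged replicate spots and applied median normalization, with a factor from the miRNAs that reached an intensity of 30 in every sample, and deposited the resulting linear intensity. The channel read and any background subtraction are not given in the sources used here, so no entry can be called above background, and the number of arrays limits the precision.

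Ratios of EPO-MV to MSC-MV intensity were computed with no filter and no pseudocount, and an entry was counted where it passed 1.5-fold in either direction, after the fold change filter of the methods. Every value lay within 1.84e-05 of a whole number of steps (an intensity of 1 equals 471 steps for EPO-MVs, 447 for MSC-MVs). Arms were paired by name. Seeds, hairpins and neighbouring genes came from RefSeq (GRCm38.p6), where 680 of 831 entries (81.8%) matched a mature miRNA by name. The alternatives were folds of 2 and 1.2, entries above the median intensity, at least 30 steps on both arrays, and the 6 treatments named above (lowess span 0.4, 3 iterations). The named miRNAs are the members, those that share a seed, the 2 nearest entries by distance, and the 3 highest and 3 lowest ratios of each growth list; markers and the brightest entries are named as checks. The members and lists were chosen with earlier results of these data known. The counting was tested on simulated data. Python 3.11.15, pandas 2.3.3, numpy 2.4.6 and statsmodels 0.14.6 were used.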

Additional observations from a re-analysis of the deposited data

How the results depend on the processing

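Of the 6 entries, 1 passed the fold threshold with the deposited values, under a fold of 2 (10.6% of all entries) and under each of the 6 treatments of the values (6.50% of all entries with the pseudocount and 22.6% to 25.9% in the others). At a fold of 1.2, where 55.4% of all entries passed, 4 did, adding miR-21a-3p (1.34), miR-221-3p (0.823) and miR-222-3p (0.736). Among entries above the median intensity and among those that reached 30 steps on each array, 0 of the 5 members left passed (9.16% and 10.8% of all entries left), since miR-222-5p is dropped, and its ratio and the arm difference of miR-222 have no value there. The arm difference of miR-21a, -0.62 on the log2 scale, went under 1.5-fold with quantile normalization (-0.50) and lowess (-0.41). That of miR-222, -2.14, went to -0.49 with the pseudocount, which shrinks ratios of dim entries by construction. The arm difference of miR-221 stayed under 1.5-fold throughout. No value past the threshold changed direction. Leaving out an array was not possible with 1 per condition. No paired analysis was possible because there was 1 array for either kind of MV. The error of a ratio was not measured.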
